A study of Homo sapiens with 8 samples.

Results

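The genes described here encode S100 proteins, small dimeric calcium-binding proteins of the EF-hand class. Of 10 S100 genes chosen by symbol, 9 had a row in a deposited table of 16082 genes (S100A2, S100A4, S100A6, S100A9, S100A10, S100A11, S100A13, S100A14 and S100A16), and S100A8 was not analysed here. The samples were KYSE150 cells, an established line of esophageal squamous cell carcinoma, with 4 control samples and 4 samples carrying a short hairpin RNA against HNRNPC (shHNRNPC), a protein that binds newly made RNA in the nucleus. All 8 are labelled as otherwise untreated. The number of hairpins, the time after their delivery, the hairpin in the control cells and whether the knockdown cells came from 1 clone stay unstated in the labels. Separate cultures are not stated for the samples either, and the p-values rest on a spread between libraries that may be technical.

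S100 proteins have no enzyme activity of their own. On calcium binding they open a surface that grips partner proteins such as annexins, myosin, p53 and cell-surface receptors. Several are made by squamous epithelium, and most of their genes lie together in the epidermal differentiation region of chromosome 1. S100A8 and S100A9 form calprotectin, best known from neutrophils and inflamed epithelium, and S100A10 is unusual in binding its partner without calcium.

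Poly(A) RNA was read to 28323403 to 34913500 counts per library. HNRNPC itself was at 587 ± 12.5 CPM (SD, n = 4; CPM are counts scaled to equal library size with edgeR's TMM factors) in control libraries and at 33.9 ± 1.80 in the knockdown libraries. Squamous markers were present: KRT5 stood at 564 ± 6.60 CPM and TP63 at 176 ± 2.14 in control cells, while SOX2 was at 0.0534 ± 0.0535 and the basal keratin KRT14 at 8.35 ± 0.661. Markers of leukocytes summed to 2.28 to 4.11 CPM in control and 3.09 to 3.25 in knockdown libraries over 9 measured genes. Within the knockdown group, replicates 1 and 4 lay on one side of the second principal component (14.4 and 6.13) and replicates 2 and 3 on the other (-8.98 and -12.1). Calls of named genes, and numbers called in the gene lists, that change without either pair are therefore given below.

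Sequences of 3 promoters are shown for the members with the largest falls (S100A6 and S100A14) and the largest rise (S100A9). Each runs 5′ to 3′ from 250 bases before to 50 after the RefSeq start site in build GRCh38.p14. Capitals mark matches on either strand to TATAA (TATA box) or GGGCGG (GC box). The windows are chr1:153535942-153536241 on the minus strand for S100A6, chr1:153616276-153616575 on the minus strand for S100A14 and chr1:153357604-153357903 on the plus strand for S100A9.
S100A6: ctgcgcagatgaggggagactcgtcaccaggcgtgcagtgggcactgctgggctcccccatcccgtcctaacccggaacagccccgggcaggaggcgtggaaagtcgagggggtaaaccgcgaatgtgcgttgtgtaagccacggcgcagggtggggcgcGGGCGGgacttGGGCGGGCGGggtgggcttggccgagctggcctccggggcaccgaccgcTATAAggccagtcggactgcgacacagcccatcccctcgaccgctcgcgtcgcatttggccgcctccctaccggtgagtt
S100A14: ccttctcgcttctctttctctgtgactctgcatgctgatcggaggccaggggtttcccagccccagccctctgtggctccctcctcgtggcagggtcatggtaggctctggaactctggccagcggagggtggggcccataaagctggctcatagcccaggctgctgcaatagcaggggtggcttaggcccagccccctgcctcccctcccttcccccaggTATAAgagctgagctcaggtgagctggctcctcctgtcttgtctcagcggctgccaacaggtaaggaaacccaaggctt
S100A9: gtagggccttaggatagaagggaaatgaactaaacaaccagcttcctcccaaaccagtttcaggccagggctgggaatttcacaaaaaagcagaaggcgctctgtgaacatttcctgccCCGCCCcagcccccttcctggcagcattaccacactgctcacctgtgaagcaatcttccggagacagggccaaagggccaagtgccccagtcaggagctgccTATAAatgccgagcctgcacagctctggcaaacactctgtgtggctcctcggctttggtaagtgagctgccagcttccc
All 3 windows hold TATAA, starting 30 bases before the start site in S100A6 and 29 before it in S100A14 and S100A9. It occurs in 20.4% of 35116 RefSeq promoter windows of the same length. TATAA was chosen after these promoters were seen, so this share is a description and not a test. S100A6 holds 3 matches to GGGCGG, the last 2 of which overlap, S100A9 holds 1 and S100A14 holds none, against 45.0% of all windows with at least 1. Neither the AP-1 motif TGANTCA (7.71% of all windows) nor the C/EBP motif TTGCNNAA (10.5%) was found in these 3 windows. Only exact matches within the windows were counted, so variant or more distant sites would be missed. Of the 13 windows of the measured members, 5 held TATAA, those of S100A4 and 1 of S100A13 besides the 3 shown, and 6 held GGGCGG. In the same 13, 1 held TGANTCA, that of S100A2, and 1 held TTGCNNAA, that of S100A11.

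After HNRNPC knockdown the S100 genes went in both directions. Of 9 members, 8 had enough counts to be tested, and 7 passed (edgeR's quasi-likelihood F test with Benjamini-Hochberg adjustment, threshold 0.05), with 3 higher and 4 lower. Of all 12001 genes tested, 77.3% passed, 38.7% higher and 38.6% lower, so the members' count was near that of the table as a whole. The median absolute log2 fold change was 0.26 for the members and 0.30 for all genes tested. A change of at least 2-fold was found for 1 member, S100A9, which was higher; of all genes tested 8.42% changed that much, 3.17% higher and 5.25% lower. Groups did not overlap in CPM for 6 of the 8 tested members, against 70.8% of genes. In these bulk samples, fewer cells making an S100 RNA and less of that RNA per cell cannot be told apart.

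**Figure D1:**
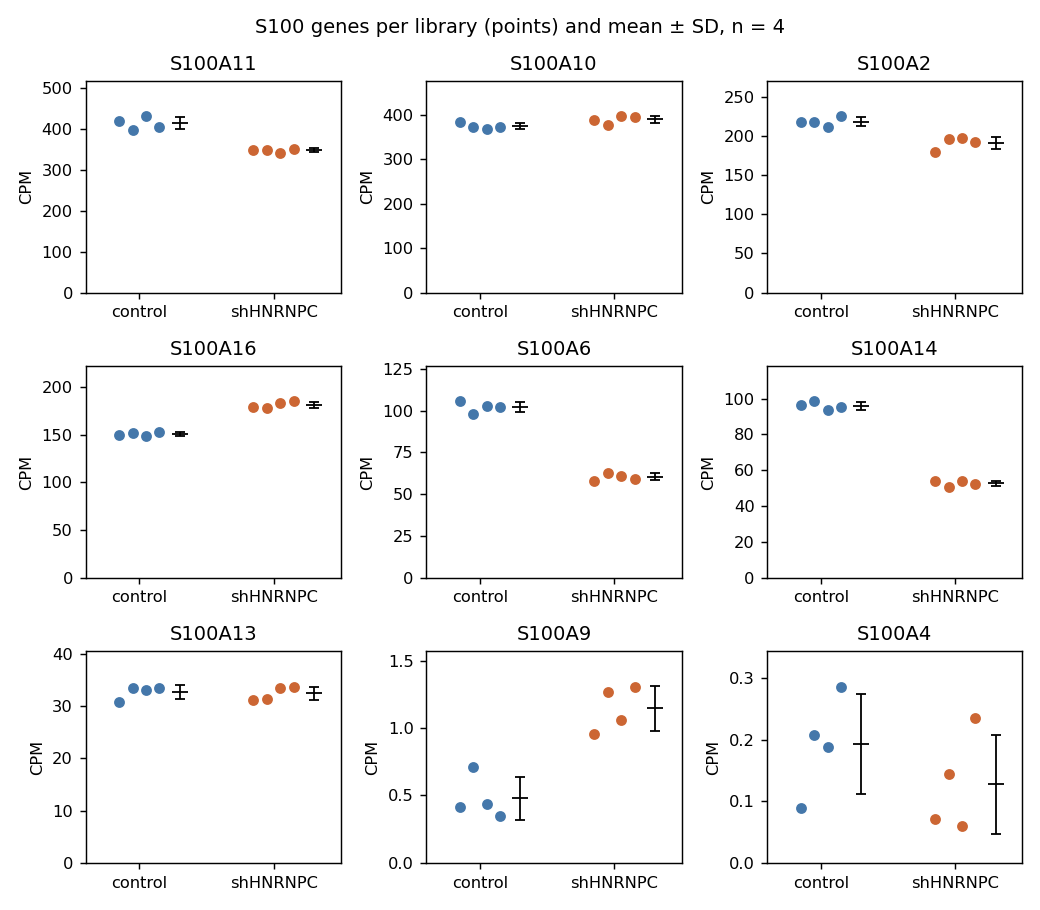
CPM of the 9 measured S100 genes in each library (points) with the mean and SD of 4 libraries beside them; every vertical axis starts at 0. S100A6 and S100A14 sit lower in all knockdown libraries, S100A16 and S100A9 higher, and the groups overlap for S100A10, S100A13 and S100A4.

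S100A14 fell most among the members. It is an epithelial S100 protein reported to bind the receptors ERBB2 and RAGE. Its level was 96.5, 98.4, 93.4 and 95.3 CPM in control libraries 1 to 4 and 53.8, 50.7, 53.9 and 52.6 in knockdown libraries 1 to 4. Every knockdown library lay well below every control library, and the level after knockdown was 55.0% of control. On the log2 scale this is a fold change of -0.86 (SE 0.0329, edgeR adjusted p = 1.02e-33). S100A14 is also the only measured S100 gene whose annotated 3' UTR holds the 7-base word GAATGAT. This word was taken from earlier results of these same data, so the shares of its carriers describe it and do not test it. Of 1495 tested carriers 54.2% were called lower, against 36.4% of 10232 other genes, without matching for 3' UTR length. The single site begins at base 579 of a 630-base 3' UTR in GENCODE release 29, where the stop codon is counted with the UTR. It is shown, with the word in capitals, because it sets S100A14 apart from the other members.
S100A14 site: ggcattgacaGAATGATggttgttttg
The part of this word in the fall of S100A14 was not tested.

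S100A6 (calcyclin), a partner of the calcyclin-binding protein CACYBP and of annexins, fell by a similar amount. It was at 105, 98.0, 103 and 102 CPM in the control libraries and at 58.0, 62.9, 61.0 and 59.4 in the knockdown libraries. The groups were far apart, and 59.1% of the control level was left (log2 fold change -0.76, SE 0.0323, edgeR adjusted p = 4.03e-31). The 95% intervals of these falls, from -0.93 to -0.80 for S100A14 and from -0.82 to -0.69 for S100A6, share a narrow range.

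S100A11 and S100A2 fell by less. S100A11, which binds annexin A1, was at 419, 398, 430 and 404 CPM in control libraries and at 348, 348, 340 and 351 after knockdown. All knockdown values were lower, at 84.0% of control on average (log2 fold change -0.25, SE 0.0210, edgeR adjusted p = 7.09e-17). GENCODE annotates 2 processed pseudogenes of S100A11 on chromosome 7, and the assignment of reads shared with such copies is not stated. S100A2, an S100 protein of basal squamous cells and a known target of the transcription factor p63, was at 218, 218, 212 and 225 CPM in control libraries. After knockdown it stood at 180, 196, 197 and 192, again with no overlap and with knockdown replicate 1 the lowest. It was left at 87.6% of control (log2 fold change -0.19, SE 0.0245, edgeR adjusted p = 5.22e-10).

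S100A16, a widely expressed member, was the one abundant S100 gene that clearly rose. It was at 150, 152, 148 and 153 CPM in control libraries and at 179, 178, 184 and 185 after knockdown. No libraries overlapped, and the level was 1.20-fold higher (log2 fold change 0.26, SE 0.0239, edgeR adjusted p = 1.28e-15). S100A16 and S100A14 are head-to-tail neighbours on the minus strand, 1117 bases apart, and moved in opposite directions.

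The calprotectin subunit S100A9 rose from a very low level. It had 14, 24, 14 and 11 counts in control libraries and 27, 44, 35 and 39 in knockdown libraries, or 0.414, 0.711, 0.437 and 0.349 against 0.959, 1.27, 1.06 and 1.31 CPM. The lowest knockdown library exceeded the highest control library, yet the estimate was wide: 2.38-fold, with a 95% interval from 1.58 to 3.60 (log2 fold change 1.25, SE 0.298, edgeR adjusted p = 0.000141). Of the leukocyte markers, CSF1R was at 2.50 ± 0.594 and 2.32 ± 0.0704 CPM (SD, n = 4), and ITGAM at 0.237 ± 0.172 and 0.358 ± 0.167. CD14, a monocyte marker, was at 0.0982 ± 0.0601 and 0.320 ± 0.0636 CPM without overlap between groups, whereas the granulocyte receptor CSF3R was at 0.00794 ± 0.0159 and 0.0300 ± 0.0408, and the neutrophil enzyme MPO at 0.00739 ± 0.0148 and 0 in all knockdown libraries. The part of such cells in the rise of S100A9 was not tested.

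S100A10 and S100A13 changed little or not detectably. S100A10 (p11), the partner of annexin A2, was at 384, 372, 368 and 373 CPM in control libraries and at 388, 377, 396 and 394 after knockdown. The groups overlapped, and the difference was 1.04-fold (log2 fold change 0.06, SE 0.0201, edgeR adjusted p = 0.0110). This call was lost with libraries scaled by their totals alone (0.03, adjusted p = 0.106) and without knockdown replicates 1 and 4 (0.05, adjusted p = 0.0706); adjusted p ranged from 0.00221 to 0.106 over all alternatives. S100A13, which takes part in the release of FGF1 and interleukin-1 alpha without a signal peptide, was at 30.7, 33.4, 33.1 and 33.4 CPM in control libraries and at 31.1, 31.3, 33.3 and 33.7 after knockdown. Its libraries intermingled (log2 fold change -0.01, edgeR adjusted p = 0.816), with a 95% interval from 0.928-fold to 1.06-fold that covers only the spread between libraries. Its exons overlap other genes, S100A1 among them, over 37.7% of their bases, so its counts are uncertain.

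S100A4 (metastasin), which binds non-muscle myosin heavy chain MYH9, was barely detected. It had 3, 7, 6 and 9 counts in control libraries and 2, 5, 2 and 7 in knockdown libraries, too few to enter the test. Summed over libraries, 16 counts against 25 gave a ratio of 0.657 with a 95% interval from 0.328 to 1.28, which covers counting error only. A difference smaller than that was not detectable at this depth.

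Beyond the 9 members, 6 S100 genes had rows. S100A3, a cysteine-rich S100 protein known from hair, was at 2.78, 3.67, 3.68 and 2.92 CPM in control libraries and at 1.17, 1.58, 1.42 and 1.57 after knockdown. The groups were apart, at 44.0% of control (log2 fold change -1.18, SE 0.188, edgeR adjusted p = 8.73e-08). S100A5 had 9, 5, 5 and 3 counts in control libraries and 0, 1, 1 and 0 after knockdown, a ratio of 0.0933 (95% interval 0.0106 to 0.379, counting error only). It had too few counts for the main test. Fitted with no filter on low counts, it came to -3.12 on the log2 scale (SE 0.896, adjusted p = 0.00101 by edgeR), a value that depends on the prior count. S100A1 did not pass (log2 fold change 0.14, edgeR adjusted p = 0.746), with 9 to 19 counts per library. S100A7, S100P and S100Z had at most 2 counts in any library.

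On chromosome 1, the S100 genes do not follow one direction along the locus. S100A6 (153534599 to 153535991 in the RefSeq annotation of GRCh38), S100A5, S100A4 and S100A3 (153547329 to 153549258) follow each other on the minus strand. The 2 of these that could be tested, S100A6 and S100A3, both fell, and the next gene, S100A2, 11849 bases further, fell by only 0.19 on the log2 scale. Then come S100A16, which rose, S100A14, which fell, and S100A13, which did not pass. Of 20 other tested genes within 500 kb of a member, the fused-type gene FLG included, 12 were called higher and 6 lower (median log2 fold change 0.19). Of all genes tested, 38.7% were called higher and 38.6% lower. Among called genes whose higher group reached 5 CPM, the largest changes were a fall of CREB3L4 (-1.05), a membrane-bound transcription factor, and rises of the tight junction protein CGN (0.90), the fatty acid transporter SLC27A3 (0.50) and TUFT1 (0.50). Cornified envelope genes, which lie between S100A11 and S100A9, were nearly silent: 9 had any count, none reached the test, and SPRR2D, the most abundant, was at 0.0907 ± 0.0400 and 0.00838 ± 0.0168 CPM (SD, n = 4). Filaggrin (FLG), a fused-type S100 protein, rose from 1.04 ± 0.179 to 1.51 ± 0.249 CPM (log2 fold change 0.54, edgeR adjusted p = 0.0354), but the groups overlapped and the call was lost without control replicate 1 or 4 or without knockdown replicate 1, 2 or 3 (adjusted p 0.0650 to 0.0970; 0.0150 to 0.217 over all alternatives). The related HRNR was at 0 in control libraries and 0.0226 ± 0.0453 CPM after knockdown.

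**Figure D2:**
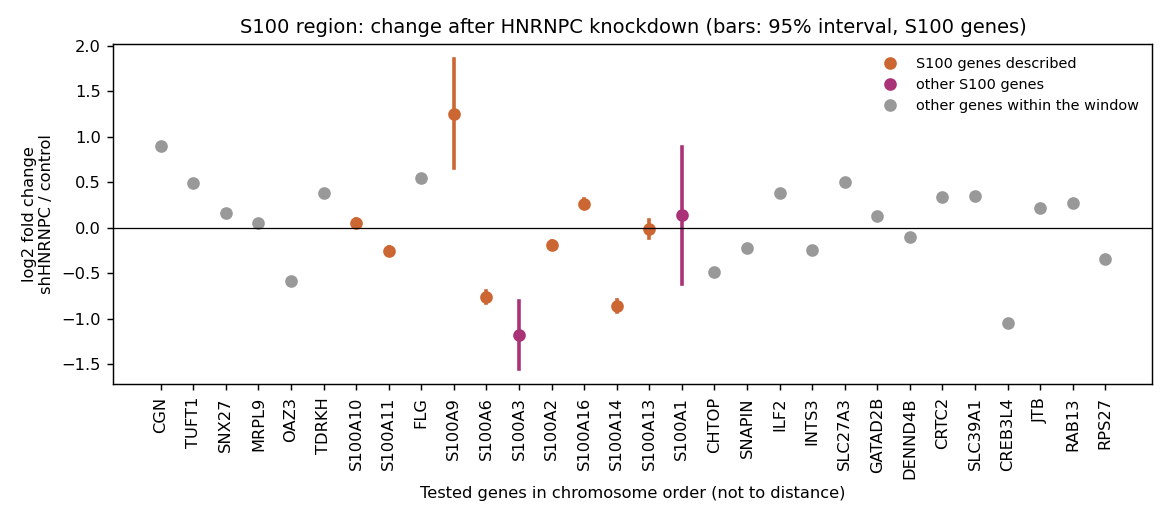
Log2 fold change of each tested gene in the S100 region, in chromosome order and not to distance; bars give the 95% interval of the S100 genes. S100A6, S100A3 and S100A14 lie below -0.7, as does the neighbour CREB3L4 (-1.05). S100A9 lies highest at 1.25, and genes on both sides of zero lie between them.

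Per exon length, S100A11 was the most abundant member in both groups. Levels in CPM per kilobase of annotated exon in control libraries were 695 ± 24.5 (SD, n = 4) for S100A11, 298 ± 5.57 for S100A10, 139 ± 3.49 for S100A2, 120 ± 3.63 for S100A6, 93.5 ± 1.34 for S100A16, 75.1 ± 1.65 for S100A14 and 35.6 ± 1.43 for S100A13. S100A9 (0.828 ± 0.277) and S100A4 (0.233 ± 0.0981) lay far below. No neighbours in that order overlapped in their library values. After knockdown S100A16 (112 ± 2.18) stood above S100A6 (71.2 ± 2.46), and the remaining order was the same, with S100A2 (lowest library 115) just above S100A16 (highest library 114). These levels depend on the exon lengths taken, since the transcripts in use were not measured.

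The 9 genes together held 0.140 ± 0.000977% of all counts in control libraries and 0.124 ± 0.00114% in knockdown libraries (SD, n = 4). Within this S100 RNA, weighted by exon length, S100A10 made up 20.4 ± 0.400% in control and 24.2 ± 0.443% in knockdown libraries, and S100A16 6.42 ± 0.181% and 8.79 ± 0.111%. The shares of S100A6 (8.27 ± 0.146% and 5.58 ± 0.200%) and S100A14 (5.16 ± 0.179% and 3.23 ± 0.0958%) were smaller after knockdown, and that of S100A2 was 9.56 ± 0.339% and 9.55 ± 0.360%. No test was made on these sums and shares.

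**Figure D3:**
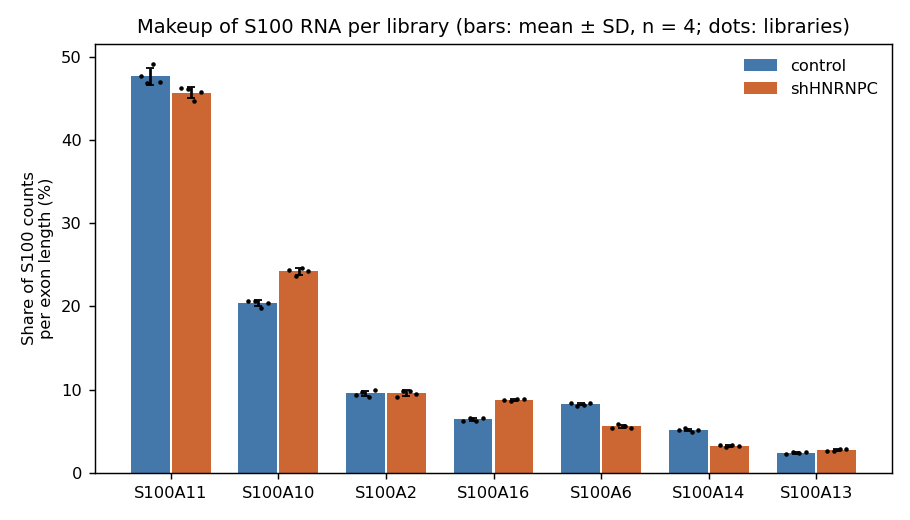
Share of each of the 7 more abundant S100 genes in the S100 counts per exon length, in percent (bars, mean ± SD of 4 libraries; dots, libraries). S100A10 and S100A16 take larger shares in knockdown libraries, S100A6 and S100A14 smaller ones.

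Partners of S100 proteins were compared with them as a log2 ratio of counts within each library, which does not depend on how libraries are scaled. Of 6 ratios planned, 5 could be formed, because S100A8 was not analysed. CACYBP, the calcyclin-binding protein, rose from 100 ± 2.30 to 144 ± 2.82 CPM (SD, n = 4), a log2 fold change of 0.53 (edgeR adjusted p = 2.44e-27) while S100A6 fell. Their log2 ratio was 0.06, -0.05, 0.09 and 0.02 in control libraries and -1.28, -1.22, -1.26 and -1.26 after knockdown. From near equal counts, S100A6 thus went to 0.410 of its former ratio (exact permutation test, two-sided, p = 0.0286, the smallest that 70 assignments allow; adjusted p = 0.0477 over 5 ratios).

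ANXA2, which forms a tetramer with S100A10, rose from 1226 ± 13.2 to 1502 ± 25.8 CPM (SD, n = 4), a log2 fold change of 0.29 (edgeR adjusted p = 7.34e-24). The S100A10 to ANXA2 log2 ratio was -1.71 ± 0.0187 in control and -1.95 ± 0.0179 in knockdown libraries, a 0.848-fold change with no overlap (exact permutation test, two-sided, p = 0.0286, adjusted p = 0.0477). ANXA1 fell from 777 ± 12.4 to 638 ± 5.49 CPM (log2 fold change -0.28, edgeR adjusted p = 2.54e-22), in the same direction as S100A11. Their log2 ratio was -0.91 ± 0.0531 and -0.88 ± 0.0280 and did not differ beyond the spread (exact permutation test, two-sided, p = 0.286).

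TP63 fell from 176 ± 2.14 to 129 ± 1.63 CPM (SD, n = 4), a log2 fold change of -0.45 (edgeR adjusted p = 6.61e-26), more than its target S100A2. The S100A2 to TP63 log2 ratio was 0.31 ± 0.0483 in control and 0.57 ± 0.0717 after knockdown (two-sided exact permutation test, p = 0.0286, adjusted p = 0.0477). Without control replicate 3 the difference was 0.24 with p = 0.0571 by the exact permutation test. S100A4 to MYH9 did not differ detectably (exact permutation test, two-sided, p = 0.229), on 2 to 9 counts of S100A4 per library. MYH9 itself rose slightly, from 2036 ± 24.6 to 2195 ± 18.8 CPM (edgeR adjusted p = 3.97e-08).

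**Figure D4:**
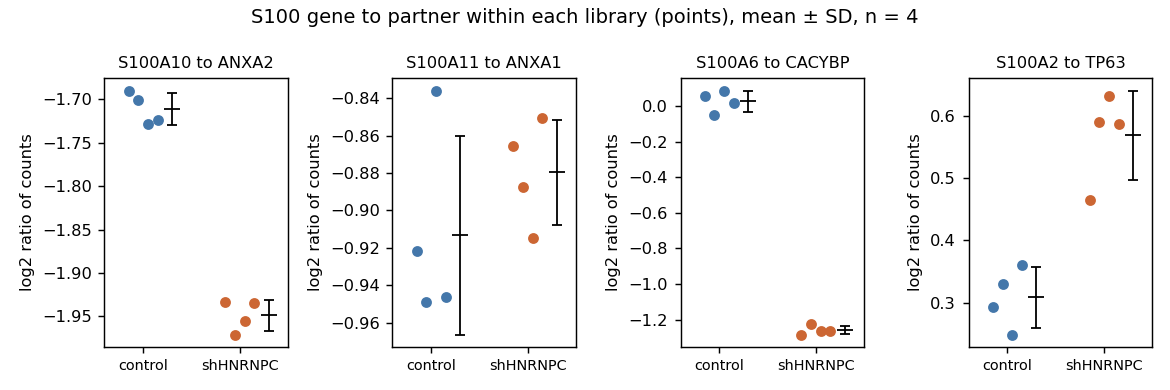
Log2 ratio of the counts of an S100 gene to those of a partner or regulator in each library (points) with mean and SD of 4 libraries; the vertical axes differ and do not start at 0. The groups are apart for S100A10 to ANXA2, S100A6 to CACYBP and S100A2 to TP63, and overlap for S100A11 to ANXA1.

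Of 22 tested binding partners and targets of S100 proteins, 11 were called higher and 8 lower, against 38.7% and 38.6% of all genes tested. The median log2 fold change was 0.09, against -0.01 for all genes. No test was made on the counts of this or any other list. The largest changes were falls. DLC1, a tumour suppressor protein that also binds S100A10, fell from 38.1 ± 0.491 to 16.8 ± 0.577 CPM (SD, n = 4), a log2 fold change of -1.18. The next 3 by size were falls as well: IL1A from 131 ± 2.85 to 62.9 ± 2.99 CPM (-1.06), FGF1 from 12.5 ± 0.357 to 6.53 ± 0.906 (-0.93) and synaptotagmin SYT1 from 24.0 ± 1.05 to 13.9 ± 0.152 (-0.79). S100A13 is known to work with these 3 proteins in release, but they were named for the size of their change. A joint change was not tested. GAATGAT is annotated in the 3' UTR of FGF1 and, among other genes named here, of CEBPB, which fell. CDH5, which was not called, and ITGAM, which had too few counts to be tested, also hold it. The word is not annotated in the 3' UTR of DLC1, IL1A, SYT1, KLF4 or CREB3L4, which fell too.

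Receptors and surface partners went both ways, with 6 of 10 tested higher and 4 lower, against 38.7% and 38.6% of all genes tested. AGER, which encodes the S100 receptor RAGE, fell from 4.78 ± 0.603 to 3.34 ± 0.535 CPM (SD, n = 4), a log2 fold change of -0.52 (edgeR adjusted p = 0.000806). Neuroplastin, NPTN, a reported receptor of S100A8 and S100A9, rose from 92.5 ± 2.54 to 132 ± 3.01 CPM (0.51), and tissue plasminogen activator, PLAT, whose plasminogen cleavage S100A10 promotes, fell (-0.40). CD68 was lower (-1.06), but all of its exon bases overlap other annotated genes.

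Of 25 tested regulators linked to S100 genes, 10 rose and 11 fell, against 38.7% and 38.6% of all genes tested (median -0.07). CEBPB fell from 101 ± 5.46 to 24.2 ± 0.503 CPM (SD, n = 4), a log2 fold change of -2.07 and KLF4 from 33.6 ± 1.51 to 16.7 ± 0.527 (-1.01), whereas CEBPD rose from 10.2 ± 0.743 to 20.4 ± 1.12 (1.00) and FOS from 3.02 ± 0.767 to 7.45 ± 0.745 (1.30). Of 27 tested EF-hand genes from outside the S100 family, 19 were called higher and 8 lower, against 38.7% and 38.6% of all genes tested (median 0.14). The largest changes were rises of NUCB2 (0.87), EFHD2 (0.79), the myosin light chain MYL6 (0.73) and the calmodulin gene CALM3 (0.73).

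Squamous and epithelial markers changed in 11 of 12 tested cases, 7 higher and 4 lower, against 38.7% and 38.6% of all genes tested. Their summed level was 3495 to 3584 CPM in control and 5749 to 5901 in knockdown libraries. KRT17 (1.70), KRT8 (1.10), KRT18 (0.56) and KRT5 (0.99) were among those that rose. The 4 that fell were KRT6A (-1.62), KRT14 (-0.77), DSG3 (-0.56) and TP63 (-0.45). In the sum, KRT8 went from 786 ± 18.7 to 1685 ± 29.8 CPM and KRT18 from 869 ± 13.5 to 1280 ± 18.2 (SD, n = 4). Fibroblast markers summed to 3.65 to 3.97 and 8.41 to 9.59 CPM over 8 measured genes, nearly all of it COL1A1 (3.26 ± 0.0917 and 7.86 ± 0.222 CPM, SD, n = 4), with LUM at 0.197 ± 0.0521 and 0.597 ± 0.146 and PDGFRB at 0.261 ± 0.0706 and 0.410 ± 0.187. Endothelial markers summed to 2.19 to 2.52 and 1.24 to 1.91 CPM, led by VWF, CDH5 and PECAM1, and melanocyte and Schwann markers to 33.1 to 35.3 and 16.8 to 21.3, mostly MITF (31.1 ± 0.766 and 15.7 ± 2.11), with PMEL at 1.43 ± 0.346 and 1.24 ± 0.390. The part of any of these in the S100 changes was not tested.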

How the data were processed

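Per the labels' protocols, TRIzol RNA from 8 samples was made into libraries with a VAHTS Universal kit. The series design text gives paired-end NovaSeq reads filtered with fastp, and the build is hg38 per the submitters' processing notes. The sources used here name no aligner, counter, annotation release or strand setting. The deposited values are raw counts per gene, made by the authors and not normalised. Libraries differed in counts by a chi-square per degree of freedom of 2.66 to 3.70 within groups.

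The members, the gene lists and the word GAATGAT were chosen with earlier results of these data known. Genes were kept with filterByExpr (minimum count 10, total 15), scaled by TMM and tested with edgeR 4.0.16 (glmQLFit with robust estimation, glmQLFTest, group term only; R 4.3.3), with Benjamini-Hochberg adjustment over 12001 genes calling genes below 0.05. Each standard error is |log2 fold change| over the root of F, and intervals are 95%. On simulated counts for 4 against 4 libraries of 12001 genes, the test called 43 of 50 genes with a 1.25-fold change, 48 of 50 with a 1.5-fold change, 50 of 50 with a 2-fold change and 13 of 11801 without a change. Every simulated gene had the same dispersion (coefficient of variation 3.02%) and few were changed, unlike the 77.3% called in these data. These rates therefore need not hold for the real genes. Ratios added 0.5 to each count and were compared by exact two-sided permutation tests. Alternatives were DESeq2 1.42.0, library totals, other filters, the replicate block, limma voom 3.58.1 and leaving out libraries.

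Named genes were the members, other S100 genes, ratio partners, and up to 4 called genes of each list, by size of change, at 1 CPM or more (5 CPM for genes within 500 kb, 2 most abundant where fewer than 2 passed) and the 3 most abundant of each marker list. A marker gene is not reported here. SOX2, KRT14, DSG3, CSF3R and MPO were named after their values were seen. Exon lengths and overlaps came from GENCODE release 29, matched by symbol for 15608 genes, and positions from RefSeq for 16038 genes. Of the motifs, TATAA was chosen after the promoters were seen.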

Additional observations from a re-analysis of the deposited data

Results flagged for a closer look

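In 34 groups of 4 libraries examined for a value set apart (9 members, 2 other S100 genes, 5 ratios and the summed share), 1 was found, where chance alone gives about 1 in 20. S100A13 in control replicate 1 was at 30.7 CPM, whereas the other control libraries lay between 33.1 and 33.4 CPM. The gap was 0.874 of the whole range, above Dixon's limit at 95% for 4 values.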

How the results depend on the processing

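The 8 members tested kept their direction and their side of the threshold under every alternative in which they could be fitted, except S100A10 (above) and S100A13, which was never called and ran from -0.042 to 0.0073 (log2) as single libraries were left out, above 0 without control replicate 4 or knockdown replicate 1 or 2. S100A9 ranged from 1.14 to 1.51 and was left out by the 1 CPM filter, under which 0 members reached a 2-fold change; with DESeq2 and all other settings 1 did. The labels do not say whether replicate numbers pair the samples. Correlations of same-numbered deviations were small (-0.0552 to 0.0170), which does not exclude a pairing. With the replicate as a block 4605 genes were higher and 4614 lower, with 3 members higher and 4 lower. Called genes in the other S100 list numbered 2 with DESeq2 and with no filter (S100A3 and S100A5), in the fused-type list 0 with both and 0 without knockdown replicates 2 and 3, in the cornified envelope list 1 and 3, in the leukocyte list 1 and 1, and in the fibroblast list 1 with the 1 CPM filter. Leaving out 1 library gave 0 to 1 in the fused-type list, 1 to 2 in the melanocyte and Schwann list, and 0.24 to 0.29 for the S100A2 to TP63 difference in log2 ratio. Without knockdown replicates 1 and 4, called genes went from 27 to 22 in the EF-hand list. They went from 10 to 9 among receptors and from 18 to 16 among genes within 500 kb. Without knockdown replicates 2 and 3 these numbers were 25, 9 and 18. The EF-hand list had 23 without control replicate 2. The difference in summed share was -0.0133 percentage points with TMM-scaled CPM and -0.0152 with raw totals. Of genes outside the family, never called, CSF1R ran from -0.24 to 0.049 and CDH5 from -0.019 to 0.33 as single libraries were left out. Where the cause of a change is not in the setting itself (fewer samples or genes), it was not tested. Depth limits S100A4, S100A5 and S100A9, which rest on under 50 counts per library.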
